A study of Mus musculus with 33 samples.

Results

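The comparison is of Dppa2/4_OE with Control_OE cells that kept the fibroblast surface phenotype Thy1+SSEA1- during reprogramming. Its members are 8 of the 33 samples of the study, 1 library per arm on days 2, 4, 8 and 14, chosen by titles naming OSKM cells of this gate. All 8 came from primary mouse embryonic fibroblasts of genotype Col1a1-OSKM+/-; Rosa26-rtTA+/-; Oct4-GFP+/-, in which doxycycline at 1 µg/ml switches on a cassette of Oct4 (Pou5f1), Sox2, Klf4 and Myc. The Dppa2/4_OE cells also overexpressed Dppa2 and Dppa4, and the Control_OE cells went through a control overexpression. Transduction was lentiviral, and the labels give neither the control insert nor the number of embryos or transductions behind a library. On days 8 and 14 the titles add that the cells were GFP negative, so the Oct4-GFP reporter was off, and the titles of days 2 and 4 say nothing of GFP. The day 11 column of this gate is a Control_OE library with no Dppa2/4_OE library beside it here, and it was left out.

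Dppa2 and Dppa4 are small nuclear proteins with a SAP domain that are made in early embryos, germ cells and pluripotent stem cells and bind each other and chromatin. In embryonic stem cells they keep a set of developmental and germline promoters free of DNA methylation. Thy1 is a surface protein of fibroblasts that cells lose early in reprogramming, and SSEA1 is a carbohydrate antigen that they gain on the way to pluripotency. Thy1+SSEA1- cells are therefore taken, by these surface antigens, as those that have gone least far, and many of them never become pluripotent.

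The gate held fibroblast RNA in both arms. Thy1 was 195 to 417 FPKM (fragments per kilobase of transcript, scaled to the mapped total) in Dppa2/4_OE libraries and 241 to 749 in Control_OE libraries. Vim, the intermediate filament of mesenchymal cells, was 1642 to 6488 FPKM in Dppa2/4_OE cells and 3650 to 7676 in Control_OE cells. Median Thy1, Vim and Pdgfrb were above those of Thy1-SSEA1- cells in both arms. Median Col3a1, Pdgfra, Dcn, Lum and Postn were below, and Col1a1, Col1a2, Twist2 and Prrx1 differed by arm. On day 2 Col1a1 was 84.6 and 560 FPKM in Dppa2/4_OE and Control_OE cells here, against 2099 and 2431 in Thy1-SSEA1- cells. Thy1 was 195 and 241 here, against 230 and 164 there. Fut9, the enzyme that makes SSEA1, was 1.29, 0.681, 1.02 and 1.13 FPKM on days 2, 4, 8 and 14 in Dppa2/4_OE cells, against 0.489, 0.169, 0.204 and 0.211 in Control_OE cells, low in both arms and without overlap (change 0.73, limma adjusted p = 0.109). Nanog was 1.97 to 4.69 FPKM in Dppa2/4_OE cells and 1.42 to 3.93 in Control_OE cells. Depth worked back from the lowest values was 23 to 29.3 M fragments in Dppa2/4_OE libraries and 24.7 to 34.9 M in Control_OE libraries.

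Dppa2 and Dppa4 check the labels, and 1 library goes against its own. Dppa2 was 599, 0.354, 175 and 171 FPKM on days 2, 4, 8 and 14 in Dppa2/4_OE cells, against 0.527, 0.319, 0.149 and 0.271 in Control_OE cells. Dppa4, its partner and neighbour (Dppa4 at chr16:48283733-48294237, Dppa2 at chr16:48303908-48319723, GRCm38), was 827, 0.409, 201 and 232 FPKM in Dppa2/4_OE cells, against 0.907, 0.141, 0.259 and 0.591 in Control_OE cells. Both genes were over 100 FPKM on days 2, 8 and 14 in Dppa2/4_OE cells and under 1 FPKM in each control library, and the library labelled Dppa2/4 day 4 was within the control range for Dppa2. Across the genes tested, that library correlated best with the Control_OE library of day 8 (r = 0.952), and less with the Dppa2/4_OE libraries of days 8 (0.908), 14 (0.883) and 2 (0.823). Results are therefore given without the day 4 pair first and with it beside them.

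**Figure D1:**
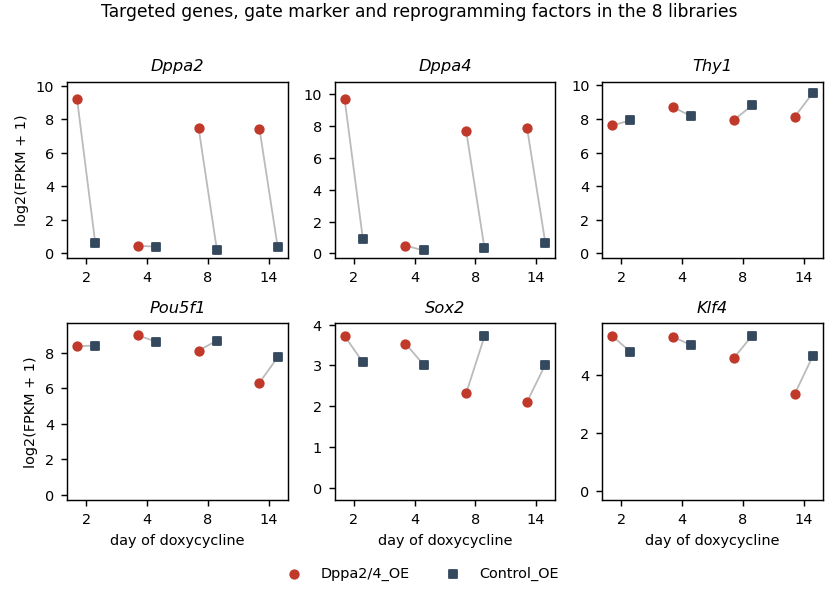
FPKM on the scale log2(FPKM + 1) against day for Dppa2, Dppa4, Thy1 and 3 reprogramming factors, with 1 library per arm and day, Dppa2/4_OE as red circles and Control_OE as dark squares, and a grey line joining a pair. Dppa2 and Dppa4 are far apart between arms on days 2, 8 and 14 and meet on day 4.

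Expression was compared within days on log2(FPKM + 1) with limma, and all changes below are on that scale, Dppa2/4_OE minus Control_OE, as the mean over days 2, 8 and 14 (n = 3 pairs) unless day 4 is named. On this scale Dppa2 was higher by 7.65 (SE 0.28, adjusted p = 2.3e-07) and Dppa4 by 7.76 (SE 0.38, adjusted p = 2.86e-06). With day 4 included the changes were 5.75 (adjusted p = 0.0225) and 5.90 (adjusted p = 0.022). Of 14742 genes tested, 1117 were higher in Dppa2/4_OE cells at an adjusted p below 0.05 (7.58% of the genes tested) and 529 were lower (3.59%). At an unadjusted p below 0.05, 2002 were higher and 1644 lower. These shares and counts are the background for the counts of gene lists below. Of the genes tested, 637 reached 1 FPKM in Dppa2/4_OE libraries alone and 123 in Control_OE libraries alone. The filter thus let in more genes open to a higher call than to a lower one. Among genes with a mean of at least 5 FPKM, 228 were higher and 186 lower. With the day 4 pair, 549 were higher (3.72%) and 173 lower (1.17%), and 685 genes passed in both fits. Without days 4 and 2, 475 were higher and 180 lower, without days 4 and 8 the counts were 729 and 190, and without days 4 and 14 they were 740 and 217. The 6 libraries of the gate fitted alone gave 314 higher and 116 lower, and the 8 with day 4 gave 0 and 0 (2059 at an unadjusted p below 0.05). A pair of libraries per day is not a replicate of that day. The p-values measure how far the change varied from day to day within gates, with that spread pooled over the gates fitted. Repeat transductions are not covered.

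Over the called genes as a whole, the day 4 pair did not share the changes of the other days. Genes called higher had a median change of 1.64 on day 2, 0.06 on day 4, 1.08 on day 8 and 1.16 on day 14. Genes called lower had -1.10, 0.06, -0.99 and -0.96 on the same days. Days 2, 8 and 14 chose these genes, so only the day 4 value is independent of the choice. Of the 1117 higher genes 656 were above 0 on day 4, and of the 529 lower genes 231 were below 0. The median change on day 4 over all genes tested was itself above 0, at 0.03. The library labelled Dppa2/4 day 4 had Dppa2 and Dppa4 at control level. Day 4 differences named below are therefore not counted as a further pair with Dppa2/4 overexpression.

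Interferon-response genes were higher in Dppa2/4_OE cells. These genes are switched on when secreted interferon binds its receptor or when sensors of foreign nucleic acid fire, and many carry a response element near the start that the factors ISGF3 and IRF bind. Of 41 tested, 26 were higher and 0 lower (unadjusted p below 0.05 in 36 higher and 0 lower). The median change was 1.07, against -0.01 over all genes tested. Of the 41, 11 reached 1 FPKM in Dppa2/4_OE libraries alone, which makes part of this count follow from the filter. Isg15, which encodes a ubiquitin-like protein that is attached to other proteins, had 58, 2.1, 70.3 and 36.4 FPKM on days 2, 4, 8 and 14 in Dppa2/4_OE cells. It had 3.44, 3.49, 3.7 and 5.46 FPKM in Control_OE cells. The Dppa2/4_OE libraries of days 2, 8 and 14 were all above the highest control, and the library labelled Dppa2/4 day 4 was below the lowest. The change was 3.40 (SE 0.49, adjusted p = 0.0019), and 2.41 with day 4 (adjusted p = 0.0524).

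Transcription factors of the response belong to the same list of 41 genes, and Irf7, Stat2 and Irf9 were among those called higher. Irf7, a transcription factor that amplifies interferon production, was 32.8, 2.27, 36.5 and 30.9 FPKM in Dppa2/4_OE cells, against 1.47, 1.87, 2.1 and 5.67 in Control_OE cells. It was higher by 3.21 (SE 0.35, adjusted p = 0.000679). Stat2 and Irf9, subunits of the ISGF3 complex, rose by 0.99 and 1.07 (adjusted p = 0.00355 and 0.0118). Oasl2, an antiviral protein related to oligoadenylate synthetases, was 13.7, 1.24, 36.3 and 21.3 FPKM in Dppa2/4_OE cells, against 0.965, 2.06, 1.24 and 1.67 in Control_OE cells. The 3 days other than day 4 lay well above every control library, and the change was 3.34 (SE 0.41, adjusted p = 0.000981). Rtp4, an interferon-induced chaperone of receptors, and Usp18, the protease that removes Isg15 and damps the response, rose by 3.23 and 2.81 (adjusted p = 0.000346 and 0.000679).

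Some members did not pass the test. Ifit3, a binder of foreign RNA, was 0.288, 0.989, 5.85 and 2.95 FPKM in Dppa2/4_OE cells, against 0.327, 0.457, 0.883 and 1.4 in Control_OE cells, slightly lower than control on day 2 and higher on the other days (change 0.85, adjusted p = 0.153). Ifit2 was 0.391, 2.9, 3.44 and 2.37 FPKM in Dppa2/4_OE cells, against 3.27, 3.56, 3.56 and 2.94 in Control_OE cells (change -0.63, adjusted p = 0.269). Of the interferon genes themselves, Ifnb1 and Ifna4 were listed at 0 in all 8 libraries, and no others are given here. A 0 in this table can be a failed estimate, as described below for Eef1a1. Of 6 tested receptors and kinases of the pathway, among them Ifnar1 and Jak1, limma called 0 (unadjusted p below 0.05 in 2, both lower). With the day 4 pair 12 of the 41 genes were called higher. Without day 2, 8 or 14 as well, 12, 12 and 25 were, and a fit on the 6 libraries of the gate alone called 5.

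Antigen presentation genes, which interferon also induces, were partly included. Of 16 MHC class I genes tested 4 were higher and 0 lower (unadjusted p below 0.05 in 5 higher). They were H2-K1, H2-D1 and the immunoproteasome subunits Psmb8 and Psmb9, of which Psmb9 lost its call without day 2 (0.138) or day 8 (0.0745). Psmb8 and Psmb9 are also counted among the 41 interferon-response genes. Of the 16 genes 0 were called by limma with day 4, without day 2, without day 8 or in the gate alone, and 3 were called without day 14. H2-D1, which carries peptides to the cell surface, was 224, 64.1, 140 and 229 FPKM in Dppa2/4_OE cells, against 47.2, 36.6, 54.1 and 102 in Control_OE cells. Each Dppa2/4_OE library of days 2, 8 and 14 was above every control library, and the change was 1.58 (SE 0.43, adjusted p = 0.0399), but it lost the call without day 2, 8 or 14 (adjusted p = 0.229, 0.11 and 0.0876). Tmem173, which encodes the DNA-sensor adaptor STING, moved the other way, with 12.6, 68.7, 45.7 and 30.4 FPKM in Dppa2/4_OE cells and 38.3, 49.3, 66.1 and 89.2 in Control_OE cells. Its fall of 1.19 (SE 0.32, adjusted p = 0.0363) lost the call without day 2 (0.194) or day 14 (0.178). Markers of macrophages and leukocytes summed to 11.2 to 64.6 FPKM in Dppa2/4_OE libraries and 11.9 to 57.5 in Control_OE libraries over 14 genes, of which 7 reached 1 FPKM, with Cd3e, a subunit of the T cell receptor complex, under 0.1 FPKM in all 8.

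The starts of interferon-response genes were read for the core of the response element, which is GAAA, any 2 bases and GAAA, on either strand, where overlapping matches count separately. The windows run from 250 bases before to 50 after a start, from RefSeq on GRCm38.p6. Of 31 tested interferon genes with a window, 17 held the core (54.8%), against 3.67% of the 9371 tested genes with a window and 3.44% of all 32851 windows. It was in 10 of 21 windows of genes called higher and in 7 of 10 of those not called. Isg15 (chr4:156200769-156201068, minus strand) was called and has 3 overlapping cores, Ifit3 (chr19:34583279-34583578, plus strand) was not called and has 2, and Oasl2 (chr5:114896684-114896983, plus strand) was called and has none in this window. They are shown to set the element beside the response, with the cores in capitals.
Isg15: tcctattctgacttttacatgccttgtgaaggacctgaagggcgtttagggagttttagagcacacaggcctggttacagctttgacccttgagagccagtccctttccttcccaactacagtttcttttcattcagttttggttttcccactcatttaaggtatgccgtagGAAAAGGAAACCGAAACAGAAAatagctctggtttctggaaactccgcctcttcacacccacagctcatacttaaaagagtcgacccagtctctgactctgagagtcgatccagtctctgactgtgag
Ifit3: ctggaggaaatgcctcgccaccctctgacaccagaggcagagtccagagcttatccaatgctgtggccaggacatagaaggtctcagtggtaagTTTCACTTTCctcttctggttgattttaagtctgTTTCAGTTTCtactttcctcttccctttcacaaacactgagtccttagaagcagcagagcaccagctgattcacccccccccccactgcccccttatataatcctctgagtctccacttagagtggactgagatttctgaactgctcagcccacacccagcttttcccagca
Oasl2: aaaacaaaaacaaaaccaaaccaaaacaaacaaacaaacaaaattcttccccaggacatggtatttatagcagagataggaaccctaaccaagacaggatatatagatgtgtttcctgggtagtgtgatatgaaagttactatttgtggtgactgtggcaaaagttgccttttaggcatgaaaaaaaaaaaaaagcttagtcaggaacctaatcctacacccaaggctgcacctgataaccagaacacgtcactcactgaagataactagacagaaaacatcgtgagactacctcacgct

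Germline genes were higher too. They serve meiosis and the silencing of transposons in germ cells and are normally kept off in somatic cells by promoter DNA methylation and by repressors such as E2F6 and MGA. Of 40 listed, 18 passed the filter on low values, 9 of them through Dppa2/4_OE libraries alone, so the count among them leans to one side by construction. Of the 18, 12 were higher and 0 lower (unadjusted p below 0.05 in 12 higher and 0 lower), with a median of 1.30. All 9 that passed through Dppa2/4_OE libraries alone were among the 12, and higher was the direction open to them. They are Taf7l, Tex19.1, Ddx4, Tdrd1, Tdrd6, Piwil2, Mael, Syce1 and Dmrtb1. The called genes outside these were Sycp3, Tdrkh and Stag3. The 22 under the filter include Dazl, an RNA-binding protein of germ cells, at 0.617, 0.0277, 0.106 and 0.211 FPKM in Dppa2/4_OE cells and 0 to 0.0401 in Control_OE cells.

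Taf7l, the germ cell form of a TFIID subunit, was 19.9, 0, 5.51 and 4.97 FPKM in Dppa2/4_OE cells, against 0.0936, 0.039, 0.0341 and 0.0552 in Control_OE cells. Tex19.1, a protein that restrains retrotransposons in germ cells and placenta, was 48, 0.4, 10.2 and 8.99 FPKM in Dppa2/4_OE cells, against 0.404, 0.591, 0.231 and 0.328 in Control_OE cells. Both were under 1 FPKM in all control libraries and in the library labelled Dppa2/4 day 4, and highest on day 2. They were higher by 3.14 (SE 0.37, adjusted p = 0.000852) and 3.74 (SE 0.48, adjusted p = 0.00117). Ddx4, the RNA helicase also called Vasa, was 7.49, 0.0565, 9.06 and 6.22 FPKM in Dppa2/4_OE cells, against 0.114 to 0.153 in Control_OE cells, and was higher by 2.90 (SE 0.35, adjusted p = 0.000936). Its highest library was that of day 8, whereas Taf7l and Tex19.1 were highest on day 2.

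Several other called germline genes act in the piRNA pathway, the small RNA defence against transposons. Tdrd1 and Tdrd6 are Tudor-domain scaffolds of the germ granule, Piwil2 binds piRNAs, and Mael helps the pathway silence transposons. They rose by 2.53, 2.51, 1.43 and 1.14 (adjusted p = 0.00095, 0.00204, 0.00755 and 0.0121). Mael reached only 1.91 FPKM, on day 14. Of the meiotic chromosome genes, Sycp3 and Syce1 of the synaptonemal complex and the cohesin subunit Stag3 rose by 1.54, 1.75 and 1.17 (adjusted p = 0.0198, 0.00213 and 0.00789). Brdt, a testis bromodomain protein, was 1.62, 2.07, 1.27 and 1.87 FPKM in Dppa2/4_OE cells, against 0.826, 1.6, 1.38 and 2.63 in Control_OE cells, and the groups overlapped (adjusted p = 0.945). With the day 4 pair 6 of the 18 were called higher, without day 2, 8 or 14 as well 8, 7 and 9 were, and in the gate alone 5.

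The E-box CACGTG, which MGA with its partner MAX binds, was in 9 of 16 windows of tested germline genes (56.2%), against 11.9% of tested genes with a window and 7.15% of all windows. It was in 6 of 10 windows of the genes called higher and 3 of 6 of those not called. The sequence reads the same on both strands. An E2F-type motif, GGCGGG followed by AA on either strand, was in 1 of 16 germline windows (6.25%), against 4.72% of tested genes with a window and 2.19% of all windows. Taf7l (chrX:134476441-134476740, minus strand), Ddx4 (chr13:112652261-112652560, minus strand) and Mael (chr1:166238695-166238994, minus strand) are shown because they rose by different amounts and each hold 1 match, in capitals.
Taf7l: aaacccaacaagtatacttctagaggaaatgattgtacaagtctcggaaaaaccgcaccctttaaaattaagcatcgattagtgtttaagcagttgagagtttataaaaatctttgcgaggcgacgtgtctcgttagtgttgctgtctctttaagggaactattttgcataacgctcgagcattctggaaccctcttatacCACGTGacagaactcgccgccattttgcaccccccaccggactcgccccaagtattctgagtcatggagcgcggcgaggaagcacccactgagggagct
Ddx4: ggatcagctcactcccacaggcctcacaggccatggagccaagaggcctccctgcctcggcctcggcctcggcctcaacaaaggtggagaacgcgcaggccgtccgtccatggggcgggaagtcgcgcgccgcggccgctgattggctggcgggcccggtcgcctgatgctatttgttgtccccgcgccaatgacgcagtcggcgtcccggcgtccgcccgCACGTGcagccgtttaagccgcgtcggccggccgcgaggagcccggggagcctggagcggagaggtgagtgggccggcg
Mael: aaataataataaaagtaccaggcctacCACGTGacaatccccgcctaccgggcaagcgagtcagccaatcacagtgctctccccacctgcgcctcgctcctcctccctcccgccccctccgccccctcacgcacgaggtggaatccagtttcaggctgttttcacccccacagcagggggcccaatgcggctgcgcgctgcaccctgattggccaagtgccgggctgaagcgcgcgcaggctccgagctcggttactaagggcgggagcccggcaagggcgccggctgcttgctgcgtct

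**Figure D2:**
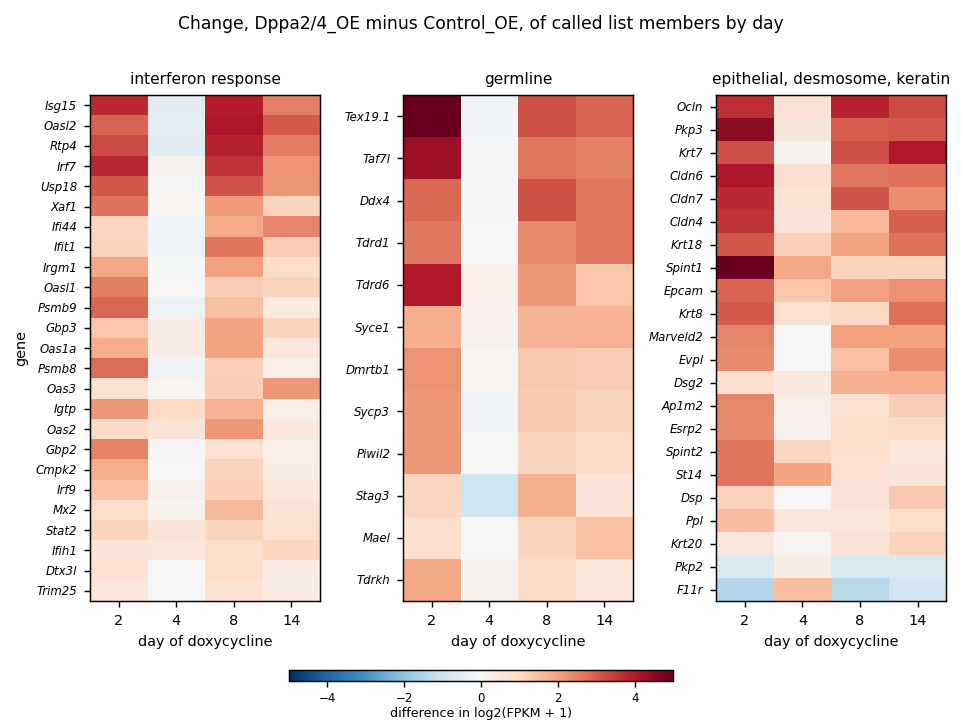
Change (Dppa2/4_OE minus Control_OE, log2(FPKM + 1), colour) on each day for list members called without day 4 that are reported here, sorted by mean change, in 3 panels: interferon response, germline, and epithelial junctions with desmosomes and keratins. Day 4 is pale in most rows, Isg15 reads 3.40 in the mean of the other days, and Pkp2 and F11r are the lower members.

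Genes of epithelial junctions were higher in cells sorted for a fibroblast antigen. Claudins and occludin seal tight junctions, Epcam is an epithelial adhesion molecule, and a switch from mesenchymal to epithelial genes is an early step of reprogramming. Of 17 tested, 11 were higher and 1 lower, with a median of 1.47, and 3 of the 17 reached 1 FPKM in Dppa2/4_OE libraries alone. Ocln, which encodes occludin, was 12.2, 0.833, 18.8 and 17.6 FPKM in Dppa2/4_OE cells, against 0.034, 0.0996, 0.366 and 0.937 in Control_OE cells. The library labelled Dppa2/4 day 4 was within the control range and the other 3 were all above it, for a change of 3.60 (SE 0.31, adjusted p = 0.000346). Cldn6, a claudin of embryonic epithelia and stem cells, was 16.7, 0.892, 6.78 and 13.6 FPKM in Dppa2/4_OE cells, against 0.0684, 0.0854, 0.249 and 1.25 in Control_OE cells (change 3.13, SE 0.32, adjusted p = 0.000643). In control cells both genes had their highest value on day 14.

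The epithelial lists were higher on day 4 also, in the pair whose Dppa2/4 library had Dppa2 at control level. On that day the median change was 0.70 over the epithelial list, 0.46 over desmosome genes and 0.44 over keratins. It was 0.03 over the germline list, 0.09 over the interferon list and 0.03 over all genes tested. Epcam was 9.21, 4.19, 16 and 19.9 FPKM in Dppa2/4_OE cells, against 0.372, 0.969, 3.14 and 3.24 in Control_OE cells. Every Dppa2/4_OE library thus exceeded every control library for Epcam. Its change was 2.41 without day 4 (adjusted p = 0.00095) and 2.16 with it (adjusted p = 0.00894). Spint1, a membrane inhibitor of serine proteases such as the matriptase St14, was 61.4, 47, 88.2 and 89.6 FPKM in Dppa2/4_OE cells, against 0.76, 11.6, 38.6 and 40.9 in Control_OE cells. All 4 Dppa2/4_OE values were above all control values, with a change of 2.48 (SE 0.68, adjusted p = 0.0378). Cdh1, the defining E-cadherin of epithelia, was 6.28, 19.2, 10 and 10.9 FPKM in Dppa2/4_OE cells, against 4.99, 14.8, 24.8 and 8.11 in Control_OE cells, and the groups overlapped (adjusted p = 0.751). F11r, a junctional adhesion molecule, was the lower member, at 2.92, 52.2, 14.1 and 28.9 FPKM in Dppa2/4_OE cells, against 9.82, 17.5, 38.5 and 57.7 in Control_OE cells (change -1.27, adjusted p = 0.0269).

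Desmosomes, the junctions that anchor keratin filaments, and keratins themselves followed. Of 10 desmosome genes tested 5 were higher and 1, Pkp2, was lower, and of 6 keratins 4 were higher and 0 lower. Of these higher genes, the desmosomal Dsg2 and Evpl and the keratin Krt20 reached 1 FPKM in Dppa2/4_OE libraries alone, so the counts lean one way by the filter. Evpl, which encodes envoplakin of the cornified envelope, was 4.35, 0.0822, 1.99 and 4.4 FPKM in Dppa2/4_OE cells, against 0.0528 to 0.0891 in Control_OE cells (change 2.04, adjusted p = 0.00204). Pkp3, a desmosomal plaque protein, was 62.9, 5.21, 46.8 and 106 FPKM in Dppa2/4_OE cells, against 1.78, 3.12, 4.9 and 11.6 in Control_OE cells, a change of 3.54 (SE 0.35, adjusted p = 0.000625). Krt7, a keratin of simple epithelia, was 11.6, 0.247, 12.7 and 31.5 FPKM in Dppa2/4_OE cells, against 0.337, 0.119, 0.469 and 1.01 in Control_OE cells, a change of 3.49 (SE 0.43, adjusted p = 0.00098). The Dppa2/4_OE libraries of days 2, 8 and 14 stood above all controls for both, and both were highest on day 14. Krt18, the simple epithelial partner of Krt8, reached 195 FPKM on day 14 in Dppa2/4_OE cells, against 29.2 in Control_OE cells. Its call (adjusted p = 0.00984) ended without day 2 (0.077) or day 14 (0.0537).

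Cells nearer to pluripotency also make epithelial genes, so their markers are set beside these. Esrrb was 0.141 to 2.33 FPKM in Dppa2/4_OE cells and 0.00743 to 2.2 in Control_OE cells, Zfp42 0.126 to 2.43 and 0.0744 to 1.22, and Sall4 0.193 to 2.17 and 0.0127 to 0.947. None of them, nor Nanog (adjusted p = 0.224) or Dppa5a (0.366), was called. Terminal skin genes Ivl, Lor, Flg, Krt1 and Sprr2d were under 0.1 FPKM in all 8 libraries, and the 11 skin genes in the table summed to 29.5 to 67.9 FPKM in Dppa2/4_OE cells and 33.5 to 58.4 in Control_OE cells. Of 6 skin genes tested 1 was higher, the transglutaminase gene Tgm1 (change 1.21, adjusted p = 0.0325), a call lost without day 2 (0.218) or day 8 (0.104). The part of skin-like or more reprogrammed cells in these results was not tested. In bulk libraries a larger share of such cells and more RNA per cell cannot be told apart. With day 4, 10 epithelial, 4 desmosome and 3 keratin genes were called higher. Without day 2, 8 or 14 as well, the epithelial count was 7, 9 and 10, the desmosome count 3, 4 and 2, and the keratin count 1, 3 and 1. The gate alone gave 6, 2 and 2.

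Fibroblast genes were lower, in fewer calls. Of 33 tested, 0 were higher and 5 were lower: Pdgfra, Pdgfrb, Col1a1, Lum and Cdh11 (unadjusted p below 0.05 in 0 higher and 13 lower). The median was -0.75, with 20 of 33 below 0 on all of days 2, 8 and 14. Of all 14742 genes tested, 3209 were below 0 on all of these days. Lum, which encodes the collagen-binding proteoglycan lumican, was 3.45, 84, 13.1 and 6.61 FPKM in Dppa2/4_OE cells, against 11.5, 59.5, 68.1 and 63.7 in Control_OE cells. Pdgfra, a growth factor receptor of mesenchymal cells, was 2.37, 24.3, 4.59 and 7.84 FPKM in Dppa2/4_OE cells, against 10.3, 24.1, 20.3 and 28.1 in Control_OE cells. The library labelled Dppa2/4 day 4 matched or exceeded its control for both, while the other days were lower within each pair. Lum fell by 2.29 (SE 0.54, adjusted p = 0.0204) and Pdgfra fell by 1.80 (SE 0.36, adjusted p = 0.0098).

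Col1a1, the main fibrillar collagen chain, was 84.6, 332, 269 and 224 FPKM in Dppa2/4_OE cells, against 560, 566, 724 and 464 in Control_OE cells, and the groups did not overlap. The OSKM cassette sits in the Col1a1 locus of all 8 libraries. Col1a1 fell by 1.73 (SE 0.48, adjusted p = 0.0402). Cdh11, a mesenchymal cadherin, was 12.3, 24.9, 14.1 and 6.66 FPKM in Dppa2/4_OE cells, against 37.1, 54.9, 48.2 and 16.2 in Control_OE cells, lower on each of the 4 days (change with day 4 -1.38, adjusted p = 0.0268). The mesenchymal transcription factors were not called: Twist1, Snai1, Snai2, Zeb1 and Zeb2 had changes of -0.35, -0.27, -0.0034, -0.41 and -0.65 (adjusted p = 0.594, 0.616, 0.996, 0.354 and 0.137). With the day 4 pair 1 fibroblast gene was called lower, without day 2, 8 or 14 as well 0, 0 and 2 were, and in the gate alone 5. Of the genes named here, Lum, Pdgfra and Col1a1 reached adjusted p of 0.0516, 0.058 and 0.256 without day 2, 0.0872, 0.0568 and 0.104 without day 8, and 0.132, 0.046 and 0.0686 without day 14.

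**Figure D3:**
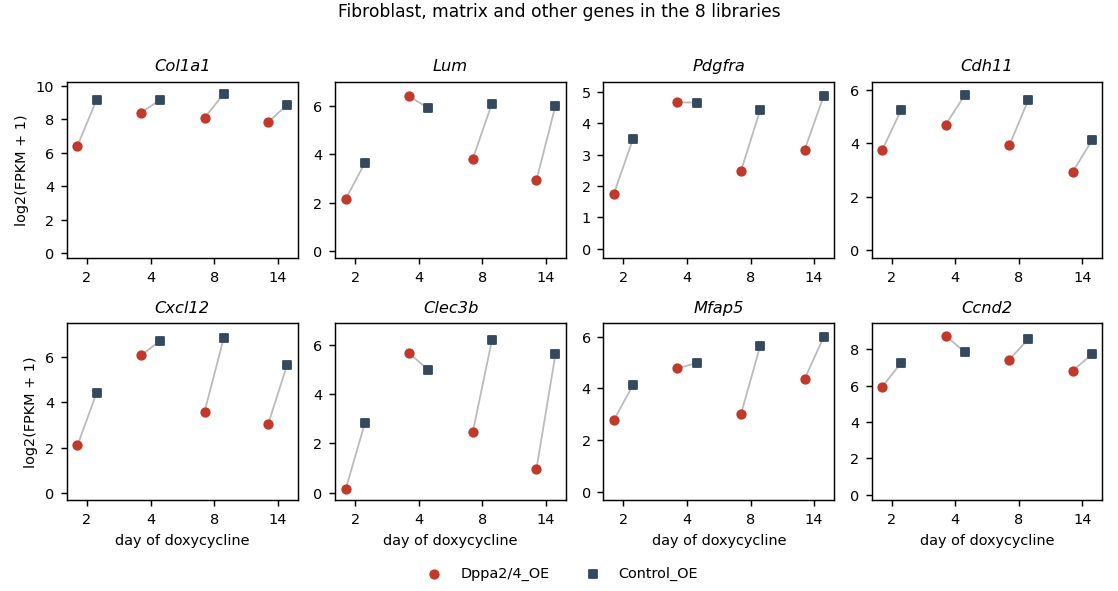
FPKM on the scale log2(FPKM + 1) against day for 8 genes of the fibroblast, matrix, cytokine and cyclin lists, with 1 library per arm and day, Dppa2/4_OE as red circles and Control_OE as dark squares, and a grey line joining a pair. Col1a1 and Cdh11 are lower in Dppa2/4_OE cells on all 4 days, while Lum, Clec3b and Ccnd2 are higher in the library labelled Dppa2/4 day 4 than in its control.

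Matrix genes were not uniform. Of 22 collagens 4 were lower, Col1a1, Col15a1 and the basement membrane chains Col4a5 and Col4a6, and 3 were higher, Col7a1, Col18a1 and Col27a1. Col7a1, which forms the anchoring fibrils of skin, was 6.83, 1.33, 4.24 and 7.64 FPKM in Dppa2/4_OE cells, against 0.873, 0.517, 1.76 and 1.59 in Control_OE cells (change 1.58, SE 0.32, adjusted p = 0.0108). Mfap5, a microfibril protein of elastic fibres, was 5.88, 26.4, 7.1 and 19.6 FPKM in Dppa2/4_OE cells, against 16.6, 30.5, 48.5 and 62.2 in Control_OE cells. It was lower in each pair, and it fell by 1.86 (SE 0.25, adjusted p = 0.00147). Eln, which encodes elastin, fell by 1.63 (SE 0.32, adjusted p = 0.00926), with 0.017, 1.28, 0.337 and 0.139 FPKM in Dppa2/4_OE cells against 1.17, 5.2, 6.29 and 1.91 in Control_OE cells. Without day 2, 8 or 14, the calls of lower collagens numbered 1, 0 and 3 and of higher ones 0, 2 and 1, and Eln reached adjusted p of 0.0257, 0.0687 and 0.0322.

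Secreted signals changed in both directions. Cxcl12, the chemokine that holds stem cells in their niche, was 3.28, 65.4, 11 and 7.18 FPKM in Dppa2/4_OE cells, against 20.2, 103, 111 and 49.3 in Control_OE cells, and was lower in each pair. It fell by 2.72 (SE 0.37, adjusted p = 0.00147), and Ccl8 and Ccl20 fell too (adjusted p = 0.0185 and 0.0111), out of 19 cytokines with 0 higher. The call of Ccl8 ended without day 8 (0.0663) or day 14 (0.131). Bmp7, a ligand that drives epithelial identity, was 9.17, 0.147, 4 and 7.13 FPKM in Dppa2/4_OE cells, against 0.0382, 0.0428, 0.0654 and 0.136 in Control_OE cells, a change of 2.79 (SE 0.32, adjusted p = 0.000744). It reached 1 FPKM in Dppa2/4_OE libraries alone, so higher was the direction open to it. Of 16 BMP pathway genes tested 1 was higher and 2 lower, beside 7.58% higher and 3.59% lower over all genes tested. Bmp4 and Sostdc1, a secreted BMP and Wnt antagonist, fell by 1.22 and 2.40 (adjusted p = 0.0282 and 0.0173), Sostdc1 losing the call without day 2 (0.14). All 3 library days other than day 4 were far above control for Bmp7, and for Sostdc1 the lowest library was Dppa2/4_OE on day 2, at 0.574 FPKM.

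Of 19 Wnt pathway genes 4 were higher and 2 lower, and 2 of the 4, Wnt6 and Wnt11, reached 1 FPKM in Dppa2/4_OE libraries alone. Wnt6, Wnt11, Sfrp4 and the transcription factor Tcf7 rose, and the non-canonical ligand Wnt5a and the receptor Fzd2 fell. The call of Sfrp4, a secreted Wnt binder, ended without day 2 (0.126) or day 14 (0.0758). Tcf7 was 13.2, 1.97, 7.6 and 8.45 FPKM in Dppa2/4_OE cells, against 2.79, 1.49, 1.2 and 2.31 in Control_OE cells, a change of 1.79 (SE 0.20, adjusted p = 0.000744). Wnt5a was 2.02, 9.17, 3.12 and 1.69 FPKM in Dppa2/4_OE cells, against 13.1, 14.5, 11.8 and 6.05 in Control_OE cells, and fell by 1.75 (SE 0.28, adjusted p = 0.0031). Tcf7 was higher and Wnt5a lower within all 4 pairs. In the Nodal pathway Lefty2, a secreted inhibitor, and Foxh1, a partner of the Smads, were higher (adjusted p = 0.0106 and 0.0268) among 9 tested, with 0 lower. Both passed the filter through Dppa2/4_OE libraries alone, which left higher as the direction open to them. Both calls ended without day 2 (adjusted p = 0.0817 and 0.196) or day 8 (0.0725 and 0.0549), and that of Foxh1 without day 14 (0.066).

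Of the 4 reprogramming factors, limma called 0 higher and 0 lower. Pou5f1 was 327, 500, 276 and 78.3 FPKM in Dppa2/4_OE cells, against 336, 391, 409 and 213 in Control_OE cells (adjusted p = 0.216). Sox2 was 12.2, 10.6, 4 and 3.3 FPKM in Dppa2/4_OE cells, against 7.45, 7.08, 12.1 and 7.12 in Control_OE cells (adjusted p = 0.441). Klf4 and Myc had changes of -0.51 and -0.42 (adjusted p = 0.324 and 0.586), and without day 2 Klf4 reached an adjusted p of 0.0416. For Sox2, Klf4 and Myc the Dppa2/4_OE library was the higher of the pair on days 2 and 4 and the lower on days 8 and 14. FPKM here does not separate the cassette from the endogenous genes. Of 28 core pluripotency genes 2 were higher, Tex19.1 and Alpl, and 2 lower, Sall1 and Fbxo15, with a median of 0.22. Over all genes tested 7.58% were higher and 3.59% lower, and Tex19.1 is also counted in the germline list. The call of Alpl, alkaline phosphatase, ended without day 2 (0.129) or day 14 (0.0868). Fbxo15, an F-box protein of stem cells that is dispensable for them, was 0.714, 27.6, 9.12 and 3.33 FPKM in Dppa2/4_OE cells, against 4.55, 15.6, 21.7 and 13.7 in Control_OE cells (change -1.54, SE 0.26, adjusted p = 0.00417).

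Genes of the 2-cell-like state, which Dppa2 and Dppa4 switch on through Dux in mouse embryonic stem cells, were mostly under 1 FPKM. Usp17le, Gm6763, Zscan4f and Zscan4d were highest in Dppa2/4_OE cells on day 2. Tdpoz4 was highest there on day 8, at 0.883 FPKM against 0.311 on day 2. Usp17le, of a family of deubiquitinases, was 5.74, 0, 0.718 and 0.181 FPKM in Dppa2/4_OE cells, against 0.0209, 0, 0 and 0 in Control_OE cells. Gm6763 was 4.83, 0, 0.421 and 0.111 FPKM in Dppa2/4_OE cells and listed at 0 in Control_OE cells. On day 2, Usp17la and Tmem92 had 2.5 and 1.99 FPKM in Dppa2/4_OE cells, against 0.0363 and 0 in Control_OE cells. These 4 genes reached 1 FPKM in that library alone, so they were not tested. Dux, the factor itself, was 0 to 0.0308 FPKM in Dppa2/4_OE cells and listed at 0 in Control_OE cells. Zscan4f, of a family of near-identical copies that can share reads, was 0.531, 0, 0.23 and 0.138 FPKM in Dppa2/4_OE cells, highest on day 2, and was listed at 0 in all Control_OE libraries. Zscan4d was 0.384, 0, 0.0691 and 0.103 FPKM in Dppa2/4_OE cells and also listed at 0 in Control_OE cells. Of the 29 listed, 1 passed the filter, the zinc finger gene Zfp809, and it was not called (change 0.59, adjusted p = 0.19).

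Cell-cycle genes changed direction between days. The median of 25 mitosis genes was -0.33 on day 2, -1.42 on day 4, 1.04 on day 8 and 0.43 on day 14, and that of 30 DNA replication genes -0.20, -1.02, 0.72 and 0.45. Top2a, the topoisomerase that untangles chromosomes in mitosis, was 151, 34.2, 146 and 96.6 FPKM in Dppa2/4_OE cells, against 147, 99.2, 54.4 and 37.8 in Control_OE cells. The pair was level on day 2, lower in Dppa2/4_OE on day 4 and higher on days 8 and 14. It was the 1 mitosis gene called (change 0.93, SE 0.25, adjusted p = 0.0398), a call lost without day 8 (0.23) or day 14 (0.215) and present without day 2 (0.0119). Ccnd2, a cyclin of G1, was 60.3, 433, 172 and 113 FPKM in Dppa2/4_OE cells, against 153, 228, 379 and 211 in Control_OE cells, and fell by 1.12 (SE 0.29, adjusted p = 0.0314), a call lost without day 2, 8 or 14 (0.159, 0.116 and 0.0832). None of 26 p53 and senescence genes was called by limma (unadjusted p below 0.05 in 0 higher and 4 lower). Over all 14742 genes tested, 2002 were higher and 1644 lower at that unadjusted threshold. Cdkn2a was 21.4, 107, 25.6 and 85.8 FPKM in Dppa2/4_OE cells, against 25, 34.7, 71.2 and 216 in Control_OE cells (adjusted p = 0.125).

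**Figure D4:**
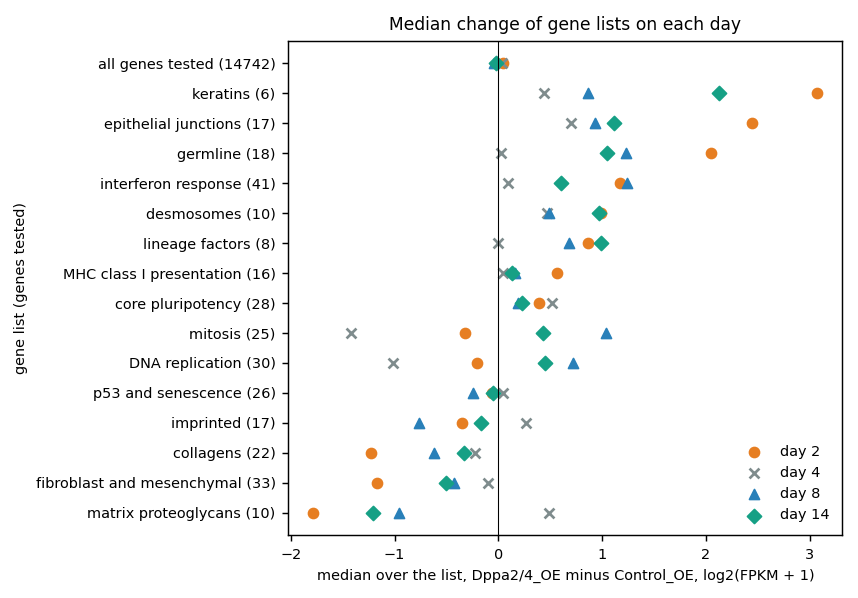
Median over each gene list of the change on each day (Dppa2/4_OE minus Control_OE, log2(FPKM + 1), horizontal axis), with the number of genes tested in brackets. Keratin, epithelial, germline and interferon lists lie right of 0 on days 2, 8 and 14, fibroblast and matrix lists lie left, and mitosis and DNA replication change side.

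Genes of lineages that the cells do not belong to were also higher. Of 22 lineage factors listed 8 passed the filter, 3 of them through Dppa2/4_OE libraries alone, and 4 were higher and 0 lower. Hand1, a transcription factor of trophoblast and heart, was 13.8, 0.0453, 6.92 and 13.4 FPKM in Dppa2/4_OE cells, against 0.037, 0.0463, 0.429 and 0.0491 in Control_OE cells (change 3.36, SE 0.34, adjusted p = 0.000625). Gata2, a factor of blood, vessel and trophoblast, was 5.88, 0.743, 3.51 and 4.93 FPKM in Dppa2/4_OE cells, against 1.11, 0.645, 0.763 and 0.851 in Control_OE cells (change 1.58, SE 0.23, adjusted p = 0.0018). Both were far above all controls on days 2, 8 and 14, and Hand1 was among those that passed through Dppa2/4_OE libraries alone. Nkx2-5 and Nes were the other members called. Without day 2, 8 or 14 as well, 2, 3 and 2 lineage factors were called.

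Of 7 endothelial genes tested, 4 were higher (Cldn5, Esam, Egfl7 and Sox18) and 2 lower (Tek and Erg). Cldn5, Esam and Sox18 reached 1 FPKM in Dppa2/4_OE libraries alone, so higher was the direction open to them. Without day 2 as well, 1 was called higher and 1 lower. Cldn5, the claudin of vessels, was 16.4, 0.03, 4.03 and 3.16 FPKM in Dppa2/4_OE cells, against 0, 0.0613, 0 and 0.0217 in Control_OE cells. Erg, a transcription factor of endothelium, was 0.396, 2.71, 0.826 and 0.441 FPKM in Dppa2/4_OE cells, against 3.11, 5.88, 6.45 and 2.59 in Control_OE cells. The 2 genes went opposite ways on every day but day 4. Cldn5 rose by 2.82 (SE 0.51, adjusted p = 0.00552), a call lost without day 2 (0.0546), and Erg fell by 1.63 (SE 0.19, adjusted p = 0.000753). The defining cadherin Cdh5 and Emcn were under 0.1 FPKM in all 8 libraries. The 12 endothelial genes summed to 50.9 to 130 FPKM in Dppa2/4_OE cells and 35.9 to 49.5 in Control_OE cells, and the part of such cells in the result was not tested.

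Of 8 neural and glial genes tested 3 were higher, Gfap, Tubb3 and Nefl, and 0 lower. Gfap passed the filter through Dppa2/4_OE libraries alone, and without day 2 as well 1 of the 3 calls was left. The list of 13 genes summed to 32 to 239 FPKM in Dppa2/4_OE cells and 33.5 to 147 in Control_OE cells. Nefl, a neurofilament, was 69.4, 0.354, 4.02 and 2.75 FPKM in Dppa2/4_OE cells, against 3.95, 0.548, 0.337 and 0.248 in Control_OE cells. Both arms were highest on day 2. It rose by 2.44 (SE 0.45, adjusted p = 0.00634), a call lost without day 2 (0.0533). Of 15 Hox genes 3 were higher and 0 lower, with 0 called by limma without day 2 or without day 8 and 2 without day 14. Among them, Hoxa5 rose by 0.76 (adjusted p = 0.032) and Hoxd9 rose by 1.51 (SE 0.32, adjusted p = 0.0124), a call lost without day 2 (0.0768) or day 8 (0.0685).

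Of 17 imprinted genes 4 were lower, H19, Peg3, Peg10 and Rian, and 0 higher (unadjusted p below 0.05 in 2 higher and 7 lower). H19, a noncoding RNA of the embryo and the host of Mir675, was 87.6, 3139, 459 and 285 FPKM in Dppa2/4_OE cells, against 231, 1183, 1502 and 2796 in Control_OE cells. It was lower in Dppa2/4_OE cells on days 2, 8 and 14, and in the library labelled Dppa2/4 day 4 it was the highest of all 8 libraries. It fell by 2.13 (SE 0.57, adjusted p = 0.0361), a call lost without day 2, 8 or 14 (0.0802, 0.0923 and 0.219). Peg10 lost its call without day 2 (0.155) or day 8 (0.135). Over the list, limma called 0 lower without day 2, without day 8 or in the gate alone, and 3 lower and 1 higher without day 14.

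Contractile genes and genes of the TGF-beta list gave 1 call in each direction, counts near the background of 7.58% higher and 3.59% lower. Des, which encodes the muscle intermediate filament desmin, was 14, 0.757, 6.39 and 12.5 FPKM in Dppa2/4_OE cells, against 0.585, 0.477, 0.205 and 0.728 in Control_OE cells. Des was far above all controls on days 2, 8 and 14, and the library labelled Dppa2/4 day 4 was at 0.757 against a highest control of 0.728. The change in Des was 2.94 (SE 0.41, adjusted p = 0.00154). Des reached 1 FPKM in Dppa2/4_OE libraries alone, so higher was the direction open to it. Cnn2, a calponin, fell by 1.22 (adjusted p = 0.0458) among 14 contractile genes with 1 higher and 1 lower. Eng, the TGF-beta co-receptor endoglin, was 23.4, 10.2, 38.1 and 44.6 FPKM in Dppa2/4_OE cells, against 5.2, 5.96, 8.24 and 12.1 in Control_OE cells, higher within each pair (change 1.95, SE 0.39, adjusted p = 0.0098). Tgfbr3, the co-receptor betaglycan, fell by 1.43 (adjusted p = 0.0188) among 17 genes of the TGF-beta list with 1 higher and 1 lower. The calls of Cnn2, Eng and Tgfbr3 ended without day 2 (adjusted p = 0.221, 0.0621 and 0.0904) or day 8 (0.176, 0.0562 and 0.0817), and those of Cnn2 and Tgfbr3 without day 14 (0.0731 and 0.0839). Mmp10, a matrix metalloprotease, was 2.13, 2.8, 15.6 and 12.4 FPKM in Dppa2/4_OE cells, against 0.0587, 0.196, 1.35 and 3.84 in Control_OE cells, higher within each pair, and was the 1 gene called of 21 proteases and inhibitors (change 1.95, SE 0.28, adjusted p = 0.00182).

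Housekeeping and stress lists moved little. Of 24 cytoplasmic ribosomal protein genes and 18 of ribosome biogenesis limma called 0, with 0 at an unadjusted p below 0.05. Of 24 glycolysis and hypoxia genes 1 was higher and 1 lower: Pfkp, a phosphofructokinase, rose by 1.22 and Aldoc, an aldolase, fell by 1.21 (adjusted p = 0.0245 and 0.0361). Of 18 genes of the amino acid stress response 1 was higher and 1 lower, Mthfd2 of mitochondrial folate metabolism at 0.86 and the transcription factor Atf5 at -1.21 (adjusted p = 0.0144 and 0.0142). The inducible chaperones Hspa1a and Hspa1b rose by 0.84 and 0.96 (adjusted p = 0.0182 and 0.012), the 2 called of 10 heat shock genes. Of 36 chromatin modifiers the methyltransferase gene Setdb2 rose by 0.76 and Mll1 fell by 0.57 (adjusted p = 0.025 and 0.0209), and in the gate's other lists Fos of AP-1 and Sqle of cholesterol synthesis fell by 1.16 and 0.58 (adjusted p = 0.0166 and 0.0407). Leaving out day 2 ended the calls of Pfkp, Aldoc, Mthfd2, Hspa1a, Hspa1b, Setdb2, Mll1, Fos and Sqle (adjusted p of 0.0591 to 0.256), and leaving out day 8 ended that of Atf5 (0.096).

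The highest after Dppa4 and Dppa2 was Gm14058, a processed pseudogene on chromosome 2 (122214620 to 122215354, GRCm38), at 164, 0, 40.2 and 45.8 FPKM in Dppa2/4_OE cells and at most 0.223 in Control_OE cells. Of its 711 stretches of 25 bases, 518 (72.9%) are in Dppa4 transcripts, so reads of Dppa4 can have been counted there and its level is uncertain. Next were AC134908.1, listed at 0 in all 4 control libraries and at 130, 0, 24.9 and 29.6 FPKM in Dppa2/4_OE cells, and Apoc1. AC134908.1 is a short miRNA gene (chr17:25746788-25746879) that overlaps an exon of Mslnl on the opposite strand. As for the short genes below, a 0 for it can be a failed estimate. Apoc1, an apolipoprotein of triglyceride-rich particles, was 81.5, 3.42, 50.1 and 94 FPKM in Dppa2/4_OE cells, against 0, 0.997, 0.581 and 7.06 in Control_OE cells (change 4.98, SE 0.55, adjusted p = 0.000679). All of its Dppa2/4_OE libraries but that labelled day 4 were above every control. The call of AC134908.1 (adjusted p = 0.0188) ended without day 2, 8 or 14 (0.128, 0.0608 and 0.0675). Among protein-coding genes, picked after values were seen, Myl7, an atrial myosin light chain, and Rasd2, a Ras-like GTPase, came next. Both reached 1 FPKM in Dppa2/4_OE libraries alone, as did Gm14058 and AC134908.1, so higher was the direction open to them. Myl7 was 45.7, 0.094, 6.88 and 21.5 FPKM in Dppa2/4_OE cells, against 0.384, 0, 0.0839 and 0.204 in Control_OE cells, and rose by 4.05 (adjusted p = 0.000744), while Myod1, Myog, Myf5, Pax7 and Nppa were under 0.1 FPKM in all 8 libraries.

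The lowest genes of all were short: Snord82, SNORD113, Snord55, AC154247.1 and Mir135a-1 were listed at 0 on days 2, 8 and 14 in Dppa2/4_OE cells and at 26.6 to 233 FPKM on those days in Control_OE cells. AC154247.1 lost its call without day 2, 8 or 14 (adjusted p = 0.0973, 0.0677 and 0.063). A 0 in this table can be a failed estimate, since Eef1a1, a translation factor of every cell, is listed at 0 in Control_OE cells on day 14 and at 10792 to 14052 FPKM in Dppa2/4_OE cells. The lowest protein-coding genes were Clec3b, Fxyd6, Cxcl12, Penk and Fmod. Clec3b, which encodes tetranectin, a plasminogen-binding protein of mesenchyme, was 0.103, 49.8, 4.56 and 0.934 FPKM in Dppa2/4_OE cells, against 6.04, 31, 72.4 and 48.4 in Control_OE cells. It was under every control library on days 2, 8 and 14, and above its own control on day 4. Its fall of 3.69 (SE 0.47, adjusted p = 0.00111) was the largest among protein-coding genes, and Fxyd6, a regulator of the sodium pump, fell by 2.89 (SE 0.49, adjusted p = 0.00405). Penk and Fmod lost their calls without day 8 (adjusted p = 0.155 and 0.108) or day 14 (0.161 and 0.148), and Fmod without day 2 (0.148).

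Whether Dppa2/4 had another effect in this gate than in the others was tested as its change here minus the mean of the changes in Thy1-SSEA1-, Thy1-SSEA1+ and GFP+ cells, over 26 libraries. With the day 4 pair, 0 genes were called higher (0%) and 0 lower (0%) by limma, and 1586 had an unadjusted p below 0.05. Without it, 23 were called higher (0.156%) and 17 lower (0.115%). The targeted genes themselves led the higher ones, with differences of 4.67 for Dppa4 (adjusted p = 0.00297) and 4.57 for Dppa2 (adjusted p = 0.000301). Dppa2 in GFP+ cells was 61.5 and 54 FPKM with Dppa2/4_OE on days 11 and 14, against 66.1 and 45.4 with Control_OE. The gates were sorted on different days, so gate and day are not separate here.

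Apoc1 and the tight junction gene Cldn7 were next, besides Gm14058. Cldn7 was 16, 1.34, 9.94 and 16.9 FPKM in Dppa2/4_OE cells of this gate, against 0.268, 0.438, 0.243 and 2.59 in Control_OE cells. In GFP+ cells it was 53.3 and 56.7 FPKM with Dppa2/4_OE on days 11 and 14, against 56 and 79.6 with Control_OE. In Thy1-SSEA1- cells it was 2.28, 7.01, 12.4 and 27.1 FPKM with Dppa2/4_OE on days 2, 4, 8 and 11, against 0.32, 0.163, 7.3 and 9.8 with Control_OE. The Dppa2/4_OE library was thus the higher of each pair in both SSEA1- gates and the lower in GFP+ cells. The difference from the mean of the other gates was 2.74 (SE 0.41, adjusted p = 0.0428). Apoc1 reached 207 and 223 FPKM in Dppa2/4_OE GFP+ cells, against 194 and 333 in Control_OE GFP+ cells, and its difference was 3.69 (SE 0.64, adjusted p = 0.0475). In Thy1-SSEA1- cells Apoc1 was 5.1, 46.3, 73.2 and 54.3 FPKM with Dppa2/4_OE on days 2, 4, 8 and 11, against 0, 0.462, 4.39 and 9.19 with Control_OE, also higher in each pair. The difference against Thy1-SSEA1- cells alone was 1.52 (adjusted p = 1).

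Lower in this gate than in the others were Gsta3, Sgce and Cacng7, after Snord82 and SNORA5, which are listed at 0 in the Dppa2/4_OE libraries of days 2, 8 and 14. Gsta3, a glutathione transferase, was 1.88, 9.39, 3.79 and 3.22 FPKM in Dppa2/4_OE cells of this gate, against 11.2, 20.9, 14.2 and 12.7 in Control_OE cells. In Thy1-SSEA1+ cells it was 29.4, 30.2 and 37 FPKM with Dppa2/4_OE on days 8, 11 and 14, against 5.35, 5.95 and 8.95 with Control_OE. In Thy1-SSEA1- cells it was 0.736, 6.18, 7.57 and 8.08 FPKM with Dppa2/4_OE on days 2, 4, 8 and 11, against 4.32, 12.9, 9.06 and 7.84 with Control_OE. Dppa2/4_OE cells were thus lower on all days of this gate and on days 2, 4 and 8 of Thy1-SSEA1- cells, and higher in Thy1-SSEA1+ cells. The difference was -2.37 (SE 0.31, adjusted p = 0.0266), and -1.13 against Thy1-SSEA1- cells alone (adjusted p = 1). Cacng7, a calcium channel subunit, and Sgce, the imprinted sarcoglycan next to Peg10, had differences of -1.92 (SE 0.27, adjusted p = 0.0272) and -1.99 (SE 0.33, adjusted p = 0.046). Without day 2 as well, 2 genes were called higher and 2 lower, without day 8 the counts were 6 and 2, and without day 14 they were 3 and 0. Each of these 3 omissions ended the calls of Apoc1, Gm14058, Cldn7, Snord82, SNORA5, Gsta3, Cacng7 and Sgce (adjusted p of 0.0614 or more), and Dppa2 and Dppa4 stayed called. Against Thy1-SSEA1- cells alone 0 genes were called by limma (587 at an unadjusted p below 0.05), with Cacng7 at -1.58 (adjusted p = 0.562) and Cldn7 at 1.53 (adjusted p = 1).

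**Figure D5:**
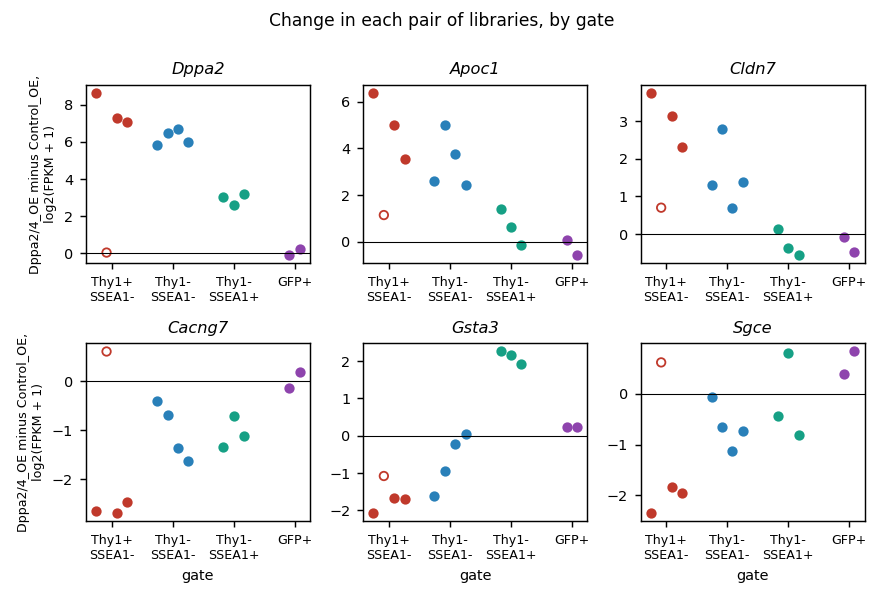
Change (Dppa2/4_OE minus Control_OE, log2(FPKM + 1)) in each pair of libraries for 6 genes named for the difference between gates, by gate, with days in order within a gate and the Thy1+SSEA1- day 4 pair as an open circle. Cacng7 lies between -2.70 and -2.46 on the other 3 days of that gate, and Gsta3 is below 0 there and above 1.9 in Thy1-SSEA1+ cells.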

How the data were processed

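RNA-seq of sorted mouse cells was deposited by the authors as 1 table of FPKM (fragments per kilobase of transcript, scaled to the mapped total) per gene and sample. Reads were processed with TopHat2 and Cuffdiff on mm10, per the submitters' processing notes, with no version stated there. FPKM are not counts, so no count model was used, and 3 columns were not used. The table lists 37973 genes, and 14742 with at least 1 FPKM in at least 2 of the 8 gate libraries were tested. Values were taken to log2(FPKM + 1), a scale that understates changes of low genes, and fitted with limma 3.58.1 in R 4.3.3 (trended prior variance) over 26 paired libraries, with 1 block for each of 13 combinations of day and gate and 1 Dppa2/4_OE term per gate. p-values were adjusted over all genes tested (Benjamini-Hochberg), with a call at 0.05.

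Pairs share a day by the labels. The deviations of the 2 libraries of a pair correlated at 0.486, 0.0455, 0.0321 and 0.395 on days 2, 4, 8 and 14. Each group has 1 library per day, nothing says that days came from separate cultures, and the spread may be technical. Genes named are 8 given whatever their result (Dppa2, Dppa4, Thy1, Fut9, Pou5f1, Sox2, Klf4 and Myc), up to 2 per list with the largest called change, the 5 highest and 5 lowest called genes that moved one way on days 2, 8 and 14 with a mean of at least 1 FPKM, and the 5 highest and 5 lowest differences between gates with that mean. Other list members were added for their roles after values were seen. The members and gene lists were chosen with earlier results of these data known. Alternatives changed the pseudocount, the filter, the scaling, the block, the libraries fitted and the prior variance. Gene positions are from GENCODE vM21 and promoters from RefSeq, both GRCm38. A few genes of the lists are counted but not reported here by name.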

Additional observations from a re-analysis of the deposited data

Results flagged for a closer look

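The effect of Dppa2/4_OE in Thy1+SSEA1- cells, without the day 4 pair, differed from the mean effect in the other 3 gates for 10 genes named by size, by limma's test of the difference itself with adjusted p below 0.05. On the log2(FPKM + 1) scale the difference was 4.67 for Dppa4, 4.57 for Dppa2, 3.69 for Apoc1, 3.02 for the pseudogene Gm14058 and 2.74 for Cldn7. It was -8.54 for Snord82, -2.95 for SNORA5, -2.37 for Gsta3, -1.99 for Sgce and -1.92 for Cacng7. Snord82 and SNORA5 are short genes listed at 0 in the Dppa2/4_OE libraries of days 2, 8 and 14. Leaving out day 2, 8 or 14 as well ended the calls of all these genes but Dppa4 and Dppa2 (limma adjusted p of 0.0614 or more). Against Thy1-SSEA1- cells alone limma called 0 genes, Dppa4 and Dppa2 included. With the day 4 pair it also called 0.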

How the results depend on the processing

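With 4 days, 549 genes were higher and 173 lower. The counts were 0 and 0 in the gate alone, 49 and 45 with no filter, 49 and 18 at a mean of at least 5 FPKM, 1 and 0 with no replicate block, and 0 to 1117 higher and 0 to 529 lower when 1 pair was left out. Without day 4, 1117 were higher and 529 lower. The counts were then 314 and 116 in the gate alone, 228 and 186 at a mean of at least 5 FPKM, 642 and 103 with no replicate block, and 475 to 740 higher and 180 to 217 lower when another pair was left out. The share higher among called genes was 67.9% there, 55.1% at a mean of at least 5 FPKM, 86.2% with no replicate block, and 76.0% with 4 days against 64.9% after quantile normalization and 52.1% with no filter. For the difference between gates with 4 days, leaving out 1 pair gave 0 to 23 higher and 0 to 17 lower, and protein-coding genes alone, an alternative chosen after seeing the data, gave 1 lower. Of 82 named genes called without day 4, 47 kept their call in the gate alone, 39 with no replicate block, 42 without day 2, 47 without day 8 and 54 without day 14, and none of them reversed. Myc, which was not called, had a change of -0.42, and of -1.04 to 0.0471 when another pair was left out, with the highest value without day 14. The cause of these shifts was not tested. With 1 library per arm and day, the depth of 23 to 34.9 M fragments covers counting error only.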
